A study of Arabidopsis thaliana with 33 samples.

Results

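Transcription factors of the DREB and ERF families carry the AP2 DNA-binding domain. The DREB proteins bind the dehydration-responsive element in the promoters of drought, cold and heat genes, and the ERF proteins were first known as ethylene-responsive factors that bind the GCC box. Many of these factors are themselves switched on or off at the transcript level within hours of a stress, while DREB2A is in addition held back as a protein, which is degraded in unstressed cells. Members of these families were followed here through 10 loci, chosen by their locus identifiers out of the 27826 in the deposited array table. They are DREB2A (AT5G05410, chromosome 5) and its close homologue DREB2B (AT3G11020, chromosome 3), ERF53 (AT2G20880, chromosome 2), AT4G28140 (chromosome 4), the cold-inducible factors CBF1 (AT4G25490), CBF2 (AT4G25470) and CBF3 (AT4G25480, DREB1A in RefSeq), all on chromosome 4, the CBF-related DDF1 (AT1G12610, chromosome 1), ESE3 (AT5G25190, chromosome 5), named as ethylene and salt inducible, and AT5G07580 (chromosome 5).

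Whole rosettes of Arabidopsis came from the reference accession Col-0 and from 2 others, Ts-1 and Ga-0. Low light (LL) was 100 μmol m-2 s-1, and high light (HL) was 550 μmol m-2 s-1, which HL plants received from the moment the lights came on at day 25 after sowing. At 1 hr after that step, each accession was sampled in HL and in LL. Col-0 was also sampled in HL and in LL at 3.5 hr on the same day and at 25 hr, on day 26, and in LL alone on the morning before the step, on day 24 (Col-0 LL at -23 hr). The plants are natural inbred accessions with no transgene, and every array holds the pooled RNA of 3 rosettes, so each of the 11 groups had 3 arrays and there were 33 in all. The samples at -23, 1 and 25 hr were all taken 1 hr into the light period on successive days, and those at 3.5 hr were taken later in the day. According to the study, HL also raised the temperature. Each light comparison below thus holds both changes, and their separate parts were not tested on the arrays. No depth can be given for arrays, and their number limits the precision.

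The values deposited for each locus are linear expression values that have lost their decimal separator, so each is known only up to a power of 10. Within a group, the 3 arrays were read as near to each other as powers of 10 allow, and groups were then placed relative to each other by the smallest change, which reaches at most 3.16-fold. For loci listed in the supplementary tables of the study, 6 of the 10 members among them, the listed power of 10 was used. Among the members this changed the placing of DREB2A alone, in Col-0 and Ts-1 at 1 hr. Levels of different genes cannot be compared, so each gene is given relative to its own mean in Col-0 LL at 1 hr (relative level, the mean taken over log2 values). Whether a gene lies above the background of the arrays cannot be told from such values, nor can the presence of leaf or root cells be checked from the levels of their markers. Differences were tested with limma over all 33 arrays. A gene was called at a Benjamini-Hochberg adjusted p below 0.05, taken over all loci, together with a fold-change above 1.4 or below 0.714. All p-values below are limma adjusted p-values.

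Of the 10 members, 5 changed in HL in every one of the 5 light comparisons, DREB2A, ERF53 and AT4G28140 upwards and ESE3 and AT5G07580 downwards. Of all loci, 0.201% were called up and 0.133% were called down in all 5. CBF2 was called once, as lower in HL in Ga-0, and DREB2B, CBF1, CBF3 and DDF1 were called in none, as were 87.6% of all loci. No light comparison gave these 4 an unadjusted limma p below 0.05 either. In Col-0 at 1 hr 3 members were called up, beside 1.94% of loci, and 2 down, beside 0.920%. At 3.5 hr there were again 3 up, beside 3.94% of loci, and 2 down, beside 3.78%, and at 25 hr 3 up, beside 2.67%, and 2 down, beside 2.40%. The Ga-0 comparison gave 3 up, beside 1.36% of loci, and 3 down, beside 0.888%, and that in Ts-1 gave 3 up, beside 1.56%, and 2 down, beside 0.866%. The 5 changing members and CBF2 are the 6 listed in the supplementary tables, which were drawn up from these same arrays, so these counts are no independent evidence of a response of the family.

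All 3 HL arrays lay above all 3 LL arrays for DREB2A, ERF53 and AT4G28140 in each of the 5 light comparisons, and below them for ESE3 and AT5G07580. Arrays lay apart in this way, with HL higher, for 9.81% of all loci in Col-0 at 1 hr, 17.5% at 3.5 hr, 15.7% at 25 hr, 9.36% in Ts-1 and 7.86% in Ga-0. With HL lower the shares were 12.0%, 17.7% and 17.8% at these Col-0 times, 9.70% in Ts-1 and 8.84% in Ga-0. CBF2 lay apart at 1 hr in the 3 accessions, higher in HL in Col-0 and lower in the other two. The plot of the members that changed in all 5 light comparisons shows every array.

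**Figure D1:**
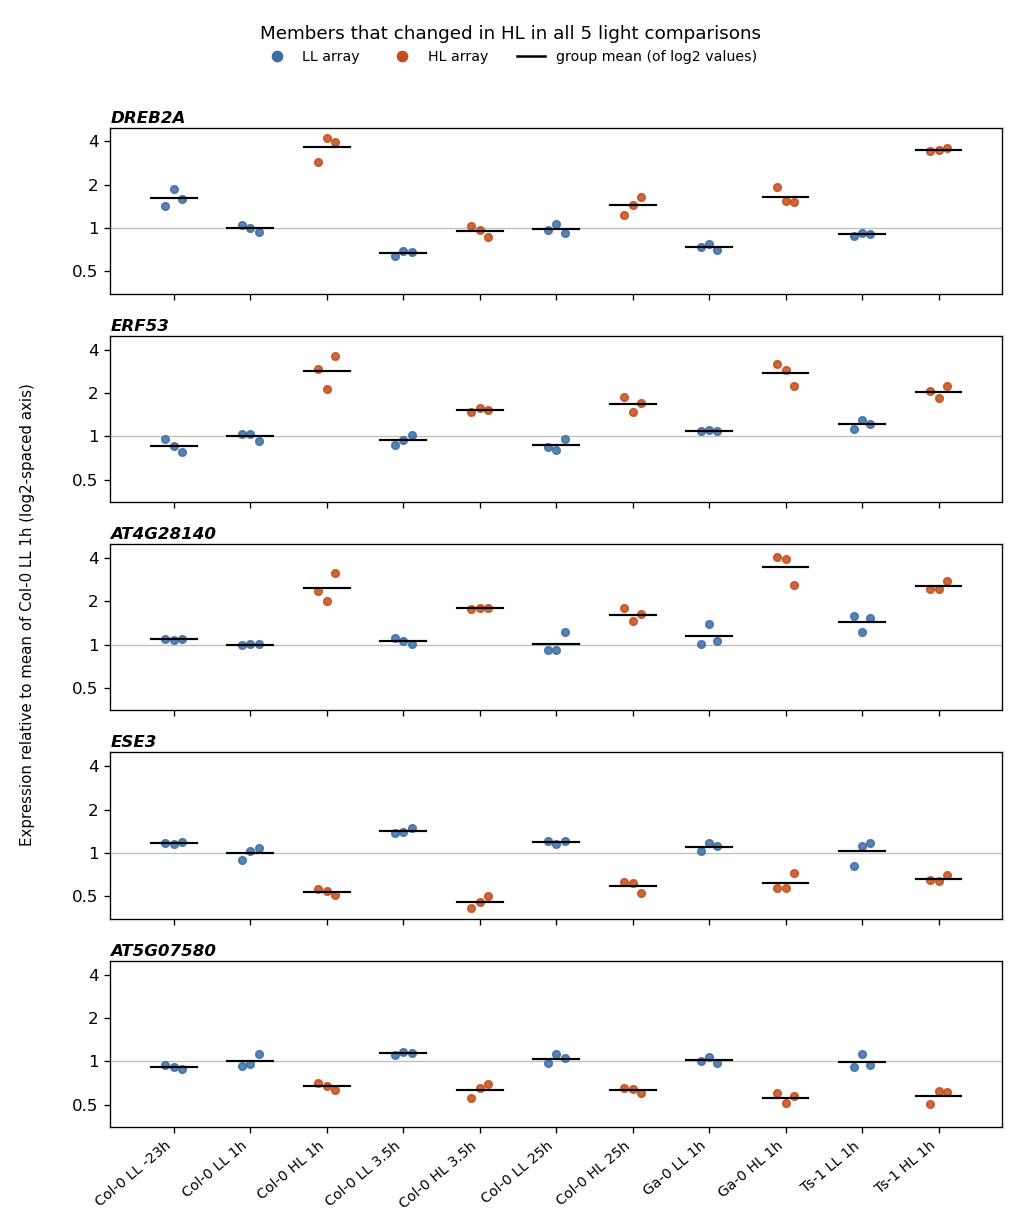
Expression of DREB2A, ERF53, AT4G28140, ESE3 and AT5G07580 on each of the 33 arrays, relative to the mean of Col-0 LL at 1 hr (log-spaced axis), with LL arrays in blue, HL arrays in orange and the group mean of the log2 values as a black line. The HL arrays of the first 3 genes lie above, and those of ESE3 and AT5G07580 below, the LL arrays with which they were compared.

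DREB2A is an activator of drought- and heat-responsive genes. In Col-0 LL at 1 hr its relative levels were 1.06, 1.00 and 0.942, and in HL at 1 hr they were 2.90, 4.22 and 3.95. In Ts-1 they were 0.883, 0.929 and 0.918 in LL and 3.42, 3.50 and 3.63 in HL. In Ga-0 they were 0.734, 0.780 and 0.701 in LL and 1.94, 1.54 and 1.51 in HL. The HL arrays lay above the LL arrays of the same accession in all 3 accessions, and the Ga-0 HL arrays lay below those of Col-0 and Ts-1. The fold-change of DREB2A was 3.64 in Col-0 (log2 1.87, standard error 0.12, adjusted p = 1.58e-13), 3.86 in Ts-1 (log2 1.95, adjusted p = 1.17e-13) and 2.24 in Ga-0 (log2 1.16, adjusted p = 1.27e-08). According to the study, quantitative PCR in a separate experiment found an early rise of DREB2A in the reference accession alone. The rises in Ts-1 and Ga-0 given here are thus not matched by that measurement. How far the direction in Col-0 and Ts-1 is known is taken up below.

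The later Col-0 time-points gave a smaller rise of DREB2A over their own LL groups. At 3.5 hr its relative levels were 0.636, 0.696 and 0.678 in LL and 1.03, 0.965 and 0.863 in HL. At 25 hr they were 0.978, 1.06 and 0.919 in LL and 1.24, 1.45 and 1.65 in HL. The log2 rise at 3.5 hr was 0.51 (95% confidence interval 0.27 to 0.74, adjusted p = 0.00129), that at 25 hr 0.55 (0.31 to 0.78, adjusted p = 0.000793). Both lie just above the fold limit, and without HL replicate 1 or LL replicate 1 at 3.5 hr, or without HL replicate 3 at 25 hr, the change was 0.45, 0.47 and 0.45 and below that limit. Tested as differences in response, the rise at 1 hr was larger than at 3.5 hr by 1.36 (standard error 0.16, adjusted p = 5.9e-07) and larger than at 25 hr by 1.32 (adjusted p = 4.11e-06). The rises at 3.5 and 25 hr differed by -0.04 (95% confidence interval -0.38 to 0.29).

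The order of the 11 groups for DREB2A ran from Col-0 HL at 1 hr, with a mean relative level of 3.64, to Col-0 LL at 3.5 hr, with 0.670. The highest groups, Col-0 HL at 1 hr and Ts-1 HL at 1 hr (3.52), overlapped in their arrays, and stood apart from Ga-0 HL at 1 hr (1.65), the next group. That group overlapped Col-0 LL at -23 hr (1.62), which overlapped Col-0 HL at 25 hr (1.44). Col-0 HL at 3.5 hr, with 0.952, overlapped the LL groups of Col-0 at 1 and 25 hr (1.00 and 0.984). The HL value at 3.5 hr was thus higher than LL at the same hour. It overlapped LL on the mornings at 1 and 25 hr and lay below LL at -23 hr. Within HL, DREB2A was lower at 3.5 hr than at 1 hr by a log2 difference of -1.94 (adjusted p = 1.6e-14) and lower at 25 hr than at 1 hr by -1.34 (adjusted p = 9.64e-10). Within LL it was lower at 3.5 hr than at 1 hr by -0.58 (adjusted p = 0.000304).

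The direction of the DREB2A change in Col-0 and Ts-1 at 1 hr is not settled by the deposited digits alone. Without a listed power of 10 the smallest change would be a fall, with a log2 change of -1.46 in Col-0 and -1.37 in Ts-1. Those falls would be called as well (limma adjusted p = 1.36e-10 and 6.25e-10). The p-values take the power of 10 as known, so a low p-value does not speak for either direction. Placing every group or every array closest to Col-0 LL at -23 hr, with no use of the listed values, gave the same rises of 1.87 and 1.95. That group was itself raised for DREB2A, with a mean relative level of 1.62. The HL means of 3.64 in Col-0 and 3.52 in Ts-1 lie near enough to it to be placed upwards. These placings therefore do not settle the direction. They turn some rises of ERF53 and AT4G28140 into falls, as given below, and the placing of every array was added after seeing the data. All 33 arrays of DREB2A span 6.64-fold at the closest, and the widest gaps between neighbouring digits are 1.51-fold and 1.49-fold, so no single gap sets the order. The rise in Ga-0 and those at 3.5 and 25 hr were the same under all of these placings. For Col-0 and Ts-1 at 1 hr the digits come from the arrays and the power of 10 from the tables of the study. The level of DREB2A in these HL groups, its place in the order of groups, and every difference that uses them, over time or between accessions, rest on the same power of 10. With the smallest change alone, the response at 1 hr minus that at 3.5 and at 25 hr would read as -1.96 and -2.01, and HL at 3.5 and 25 hr minus HL at 1 hr as 1.38 and 1.98. The plot of the light response under 4 placings shows where the readings part.

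DREB2B, the other member of that pair, was called in no comparison of any kind. Its relative levels spanned 0.796 to 1.15 in Col-0 LL at 1 hr and 0.982 to 1.04 in HL, so that the HL arrays lay within the range of the LL arrays. Over the 5 light comparisons its log2 change lay between -0.01 and 0.11, with the widest interval bounds at -0.22 and 0.32. In terms of fold-change, the highest upper bound among these intervals was 1.25. All 33 arrays of DREB2B span only 1.44-fold.

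**Figure D2:**
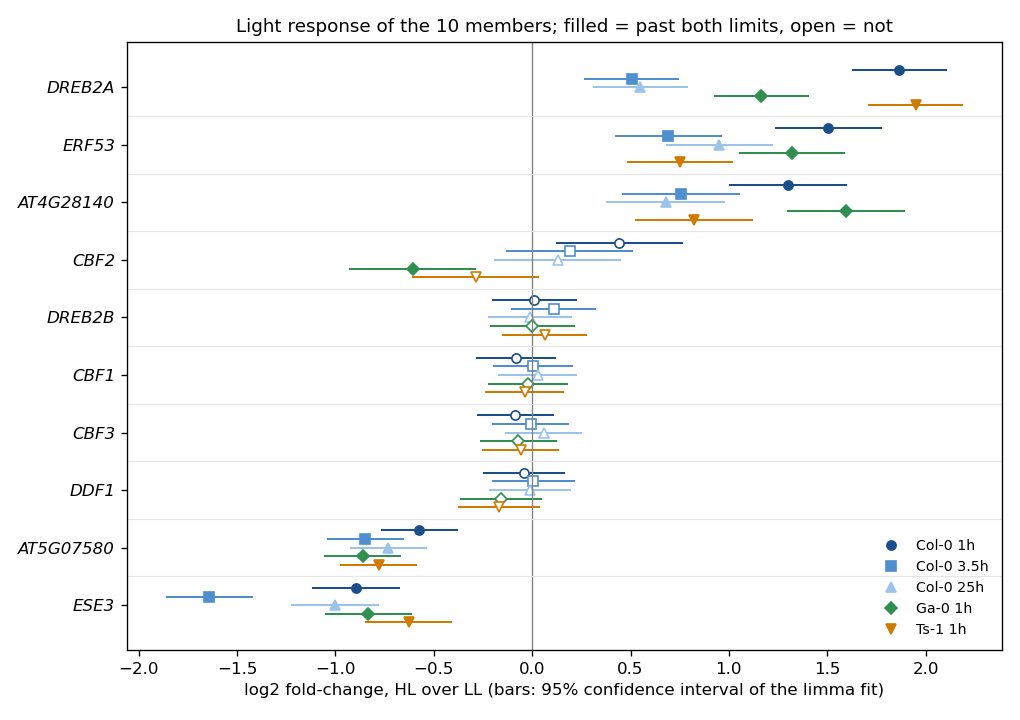
log2 fold-change of HL over LL for each of the 10 members in the 5 light comparisons (symbols, colours by accession and time-point), with the 95% confidence interval of the limma fit as bars. Filled symbols passed both limits, which holds for DREB2A, ERF53, AT4G28140, AT5G07580 and ESE3 throughout and for CBF2 in Ga-0 alone.

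ERF53 is a drought- and salt-responsive activator of the DREB branch, and AT4G28140 has no symbol of its own in the annotation used. Both rose in all 5 comparisons. ERF53 had relative levels of 1.05, 1.03 and 0.926 in Col-0 LL at 1 hr and of 2.96, 2.15 and 3.61 in HL. In Ga-0 the levels were 1.09, 1.11 and 1.1 in LL and 3.20, 2.89 and 2.23 in HL. In Ts-1 they were 1.13, 1.3 and 1.22 in LL and 2.05, 1.86 and 2.24 in HL. The HL arrays of the 3 accessions overlapped in part, and the LL arrays of Ts-1 and of Ga-0 lay above those of Col-0. Col-0 showed a log2 rise of 1.51 (standard error 0.13, adjusted p = 4.16e-10), Ga-0 one of 1.32 (adjusted p = 1e-08) and Ts-1 one of 0.75 (adjusted p = 0.000167).

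At 3.5 hr ERF53 had relative levels of 1.48, 1.57 and 1.54 in HL, beside 0.878, 0.946 and 1.02 in LL. At 25 hr it had 1.87, 1.48 and 1.72 in HL, beside 0.847, 0.805 and 0.957 in LL. These are log2 rises of 0.69 (adjusted p = 0.000129) for the earlier and 0.95 (adjusted p = 2.03e-06) for the later time-point. The rise at 1 hr was larger than at 3.5 hr by 0.81 (standard error 0.18, adjusted p = 0.00304), while the difference from 25 hr, 0.55, did not pass (adjusted p = 0.0793), except without HL replicate 2 at 1 hr, where it was 0.76. Within HL, ERF53 was lower at 3.5 and at 25 hr than at 1 hr, by log2 differences of -0.89 (adjusted p = 1.76e-06) and -0.76 (adjusted p = 8.25e-05). With groups placed closest to Col-0 LL at -23 hr these differences would read as 2.43 and 2.56, and the response difference of 0.81 as -2.51. Its LL groups in Col-0 lay between 0.864 and 1.00 in mean relative level and none differed from LL at 1 hr by the limits.

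AT4G28140 had relative levels of 0.988, 1.01 and 1.01 in Col-0 LL at 1 hr and of 2.38, 2.0 and 3.14 in HL. In Ga-0 it had 1.01, 1.39 and 1.07 in LL and 4.04, 3.92 and 2.62 in HL. In Ts-1 it had 1.58, 1.23 and 1.52 in LL and 2.43, 2.44 and 2.76 in HL. Ga-0 HL held the highest arrays of this gene, while its lowest array lay within the range of the Ts-1 HL arrays. On the log2 scale the rise was 1.59 for Ga-0 (standard error 0.14, adjusted p = 1.87e-09), 1.3 for Col-0 (adjusted p = 9.17e-08) and 0.82 for Ts-1 (adjusted p = 0.000208). At 3.5 hr its HL arrays lay between 1.77 and 1.81 and its LL arrays between 1.01 and 1.11, a log2 rise of 0.76 (adjusted p = 0.000168). At 25 hr the HL arrays lay between 1.45 and 1.80 and the LL arrays between 0.915 and 1.23, a log2 rise of 0.68 (adjusted p = 0.000906). None of its differences in response passed the limits with all arrays, the one of lowest p being 1 hr against 25 hr, with 0.62 (adjusted p = 0.0761). Without HL replicate 2 of Col-0 at 1 hr the difference from 25 hr was 0.77 and that from 3.5 hr 0.69, and both passed. Both also passed without Ga-0 HL replicate 3, at 0.62 and 0.55, and Ga-0 minus Ts-1 then passed too, at 0.97 in place of 0.77. Within HL it was lower at 25 hr than at 1 hr by -0.60 (adjusted p = 0.00342), and without HL replicate 3 at 1 hr by -0.43, which did not pass. At 3.5 hr its HL level was lower than at 1 hr by -0.46, within the fold limit, and past that limit without HL replicate 1 or 2 at 1 hr (-0.49 and -0.61).

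The direction of some of these rises at 1 hr depends on how the digits are placed. The mean relative level of ERF53 was 0.864 in Col-0 LL at -23 hr. Its mean HL levels at 1 hr in Col-0 and Ga-0 (2.84 and 2.74) lie more than 3.16-fold above that, in Ga-0 only just. Col-0 HL replicate 2 (2.15) and Ga-0 HL replicate 3 (2.23) lie within 3.16-fold of it. With groups placed closest to Col-0 LL at -23 hr, ERF53 would read as falling, with log2 changes of -1.82 in Col-0 and -2.0 in Ga-0, and AT4G28140 in Ga-0 would read as -1.73. These falls would be called too (limma adjusted p = 1.3e-11, 5.19e-13 and 2.39e-10, in that order). Compared with LL of its own accession and hour, the rise is the smallest change in each of these cases, and the listed values did not alter it.

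**Figure D3:**
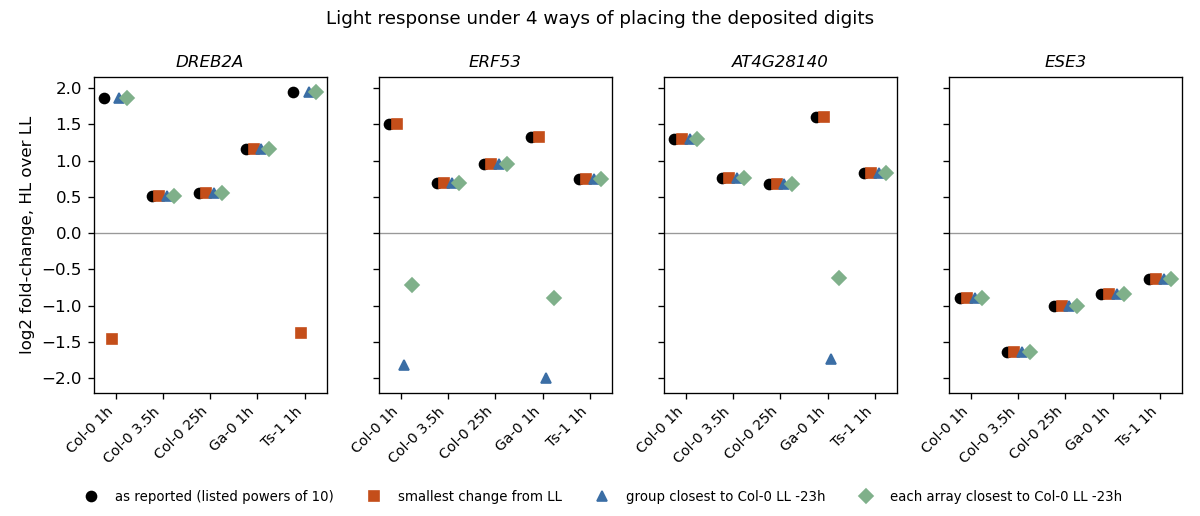
log2 fold-change of HL over LL for DREB2A, ERF53, AT4G28140 and ESE3 in the 5 light comparisons, under the placing used (black), the smallest change from LL (orange), and groups (blue) or arrays (green) placed closest to Col-0 LL at -23 hr. ESE3 reads the same under all 4, DREB2A parts under the smallest change in Col-0 and Ts-1 at 1 hr, and ERF53 and AT4G28140 part under the placings by Col-0 LL at -23 hr.

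ESE3 and AT5G07580 fell in HL at every time-point and in every accession. ESE3 had relative levels of 0.901, 1.03 and 1.08 in Col-0 LL at 1 hr and of 0.559, 0.547 and 0.509 in HL. At 3.5 hr it had 1.38, 1.39 and 1.5 in LL and 0.414, 0.458 and 0.499 in HL. At 25 hr it had 1.21, 1.15 and 1.2 in LL and 0.634, 0.616 and 0.531 in HL. The groups did not overlap at any time-point, with the LL arrays at their highest and the HL arrays at their lowest at 3.5 hr. ESE3 changed by a log2 value of -1.64 at 3.5 hr (standard error 0.11, adjusted p = 3.9e-13), compared with -0.89 at 1 hr (adjusted p = 3.4e-07), and by -1.0 after 25 hr (adjusted p = 2.78e-08).

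The fall of ESE3 at 3.5 hr was deeper than that at 1 hr by 0.75 (standard error 0.15, adjusted p = 0.000933), and the change at 3.5 hr minus that at 25 hr was -0.64 (adjusted p = 0.00505). The change at 1 hr differed from that at 25 hr by 0.11 (95% confidence interval -0.20 to 0.42). In LL, ESE3 was higher at 3.5 hr than at 1 hr by 0.51 (adjusted p = 0.000547), and without LL replicate 1 at 1 hr or LL replicate 3 at 3.5 hr by 0.43 and 0.47, below the fold limit. In HL the difference between 3.5 and 1 hr was -0.24 and did not pass (adjusted p = 0.0951). In Ga-0 its arrays were 1.03, 1.18 and 1.11 in LL and 0.574, 0.573 and 0.726 in HL, and in Ts-1 0.808, 1.13 and 1.18 in LL and 0.649, 0.639 and 0.701 in HL. The HL arrays lay below the LL arrays in both accessions. The log2 change was -0.63 for Ts-1 (adjusted p = 0.000131) and -0.83 for Ga-0 (adjusted p = 1.73e-06), and no difference between accessions passed.

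AT5G07580 had relative levels of 0.931, 0.950 and 1.13 in Col-0 LL at 1 hr and of 0.707, 0.677 and 0.634 in HL. Its HL arrays lay between 0.556 and 0.699 at 3.5 hr and between 0.602 and 0.649 at 25 hr, and its LL arrays between 1.11 and 1.16 and between 0.966 and 1.12. AT5G07580 changed by a log2 value of -0.85 at 3.5 hr (standard error 0.09, adjusted p = 2.58e-08), compared with -0.73 at 25 hr (adjusted p = 7.59e-07), and by -0.57 after 1 hr (adjusted p = 6.75e-05). Without LL replicate 3 at 1 hr, the highest array of its group, the change at 1 hr was -0.48 and below the fold limit. In Ga-0 the HL arrays lay between 0.510 and 0.598 and the LL arrays between 0.971 and 1.07, and in Ts-1 between 0.504 and 0.619 and between 0.908 and 1.13. These are log2 changes of -0.86 (adjusted p = 8.91e-08) and -0.78 (adjusted p = 4.86e-07). Among the members called in all 5 comparisons, AT5G07580 alone had no response difference, no LL difference and no HL time difference past the limits. Its 5 HL groups overlapped in their arrays from 1 to the next.

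The CBF factors are best known as the early cold-induced activators of the COR genes. CBF1, CBF2 and CBF3 lie side by side on chromosome 4 with 0 other protein-coding genes between them and are closely similar in sequence, so shared hybridization of their probes cannot be separated here. CBF2 had relative levels of 1.68, 1.57 and 1.69 in Ga-0 LL at 1 hr and of 1.3, 0.933 and 1.04 in HL. In Col-0 it had 1.08, 1.05 and 0.882 in LL and 1.25, 1.4 and 1.44 in HL. In Ts-1 it had 0.952, 1.09 and 1.25 in LL and 0.884, 0.853 and 0.940 in HL. The HL arrays lay below the LL arrays in Ga-0 and Ts-1 and above them in Col-0.

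CBF2 fell in Ga-0 by 0.61 on the log2 scale (standard error 0.16, adjusted p = 0.0137). In Col-0 at 1 hr its change was 0.44 (adjusted p = 0.0884), while the Ts-1 value was -0.29 (adjusted p = 0.358), neither past the limits. The Col-0 response exceeded that of Ga-0 by 1.05 (standard error 0.22, adjusted p = 0.0325), and the difference from Ts-1, 0.73, did not pass (adjusted p = 0.14), except without Col-0 LL replicate 1 at -23 hr. The difference between Col-0 and Ga-0 itself lay between 0.94 and 1.18 on leaving out each of its 12 arrays, and was lost without 8 of them, namely HL and LL replicates 2 and 3 of Col-0, HL replicates 2 and 3 of Ga-0 and LL replicates 1 and 3 of Ga-0. Without any 1 of Ga-0 HL replicates 2 and 3 and Ga-0 LL replicates 1 and 3 the fall in Ga-0 no longer passed, with log2 changes of -0.50, -0.58, -0.59 and -0.59. At 3.5 and 25 hr in Col-0 its log2 change was 0.19 and 0.13, with overlapping arrays. Within HL it was lower at 3.5 hr than at 1 hr by -0.45, within the fold limit, and past it without HL replicate 1 at 1 hr (-0.51) or HL replicate 3 at 3.5 hr (-0.53).

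**Figure D4:**
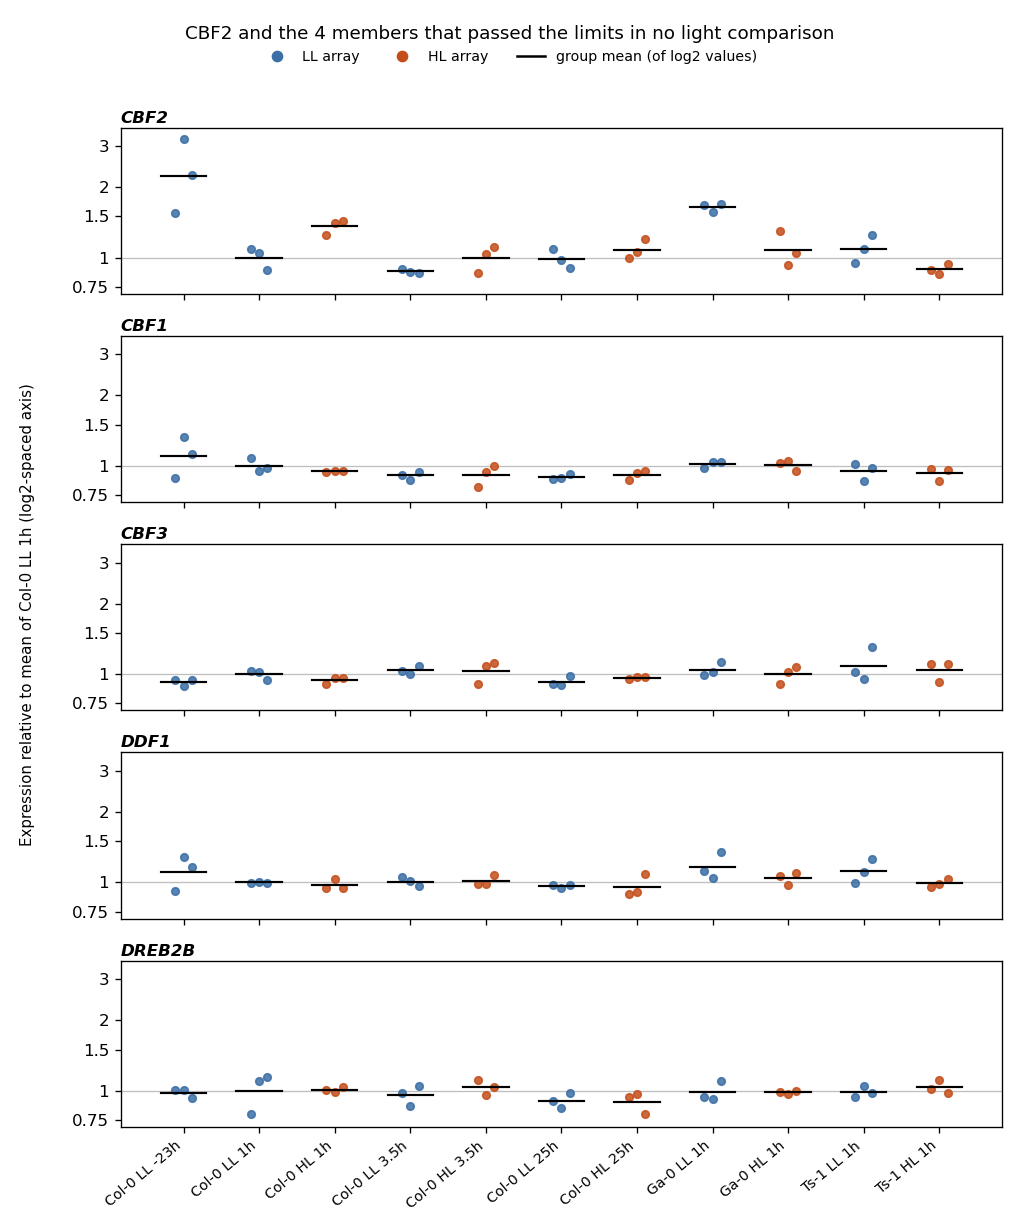
Expression of CBF2, CBF1, CBF3, DDF1 and DREB2B on each of the 33 arrays, relative to the mean of Col-0 LL at 1 hr (log-spaced axis), with LL arrays in blue, HL arrays in orange and the group mean of the log2 values as a black line. CBF2 is highest in Col-0 LL at -23 hr, between 1.55 and 3.22, and in Ga-0 LL at 1 hr, between 1.57 and 1.69.

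CBF1, CBF3 and DDF1, whose product is a CBF-like activator known from salt and dwarfing phenotypes, moved little. All 33 arrays spanned 1.64-fold for CBF1, 1.48-fold for CBF3 and 1.53-fold for DDF1. Their log2 changes over the 5 light comparisons lay between -0.08 and 0.03 for CBF1, between -0.09 and 0.06 for CBF3 and between -0.17 and 0.01 for DDF1. The largest was that of DDF1 in Ts-1, with 0.96, 0.980 and 1.04 in HL beside 0.994, 1.1 and 1.26 in LL (-0.17, 95% confidence interval -0.37 to 0.03, adjusted p = 0.418). None of the 3 was called in any of the 19 comparisons run.

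In LL at 1 hr the accessions differed in CBF2 and AT4G28140. There was 1 member called for Ga-0 against Col-0, where 6.45% of loci were called, 1 for Ts-1 against Col-0, where 7.47% were, and 1 for Ga-0 against Ts-1, where 5.44% were. CBF2 was higher in Ga-0 than in Col-0 by 0.72 (adjusted p = 0.000935) and higher than in Ts-1 by 0.60 (adjusted p = 0.00665), the latter 0.50 and not called without Ts-1 LL replicate 1. AT4G28140 was higher in Ts-1 than in Col-0 by 0.52 (adjusted p = 0.00854), and by 0.45 and 0.48, below the fold limit, without Ts-1 LL replicates 1 and 3. DREB2A was -0.44 in Ga-0 against Col-0, with an adjusted p of 0.00641 but within the fold limit. The array probes were designed on the reference accession, and the part of unequal probe match in these LL differences was not tested.

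The differences in light response between accessions were few among all loci. Each pair of these comparisons shares the arrays of 1 accession, and those between time-points likewise share arrays. There was 1 member called for Col-0 against Ga-0 (CBF2, above), where 0.140% of loci were, 1 for Col-0 against Ts-1, where 0.550% were, and 1 for Ga-0 against Ts-1, where 0.244% were. The rise of ERF53 in Col-0 exceeded that in Ts-1 by 0.75 (standard error 0.18, adjusted p = 0.0488), but this call was lost on leaving out any of 11 of the 12 arrays compared, all but Col-0 HL replicate 2, and any of 16 of the 21 other arrays. It would read as -2.57 with groups placed closest to Col-0 LL at -23 hr. DREB2A rose less in Ga-0 than in Ts-1, with a difference of -0.79 (standard error 0.16, adjusted p = 0.0267), and this call was lost without any 1 of 9 of the 12 arrays, the difference lying between -0.90 and -0.72. With the smallest change alone it would read as 2.54. The response of DREB2A in Col-0 minus that in Ga-0 was 0.70, which did not pass (adjusted p = 0.0799), except without Col-0 HL replicate 1 (0.87) or Ga-0 HL replicate 1 (0.82).

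Over time in Col-0, the response differences called among members numbered 3 between 1 and 3.5 hr (DREB2A, ERF53 and ESE3), where 6.35% of loci were called, 1 between 1 and 25 hr (DREB2A), where 3.08% were, and 1 between 3.5 and 25 hr (ESE3), where 5.60% were. Within HL, 2 members were called between 3.5 and 1 hr, where 11.8% of loci were, and 3 between 25 and 1 hr, where 3.86% were. Within LL, DREB2A and ESE3 were called between 3.5 and 1 hr, where 7.41% of loci were. Both thus differed in LL between 1 and 3.5 hr, and DREB2A also between mornings at the same hour, as given below. For every gene, HL at 3.5 hr was compared with LL at 3.5 hr.

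Of the LL groups taken in the morning, that at -23 hr stood apart for CBF2 and DREB2A, 2 members of 10, where 0.284% of all loci were called. CBF2 had relative levels of 1.55, 3.22 and 2.25 at -23 hr, 1.08, 1.05 and 0.882 at 1 hr and 1.09, 0.979 and 0.904 at 25 hr. DREB2A had 1.43, 1.87 and 1.59 at -23 hr. All 3 arrays at -23 hr lay above the LL arrays at 1 and 25 hr for both genes. CBF2 was higher at -23 hr than at 1 hr by 1.16 (standard error 0.16, adjusted p = 8.34e-05) and DREB2A by 0.70 (adjusted p = 0.00131), and on leaving out each array in turn the differences lay between 0.90 and 1.43 and between 0.59 and 0.79. Replicate 2 held the highest array of the group for CBF2 and DREB2A, and also for CBF1 (1.33) and DDF1 (1.28), which were not called. Between 25 and 1 hr 0 members were called, and at an unadjusted p below 0.05 only ESE3 differed (0.25, adjusted p = 0.579), where 0.0252% of all loci were called. In 4 other ERF genes of the list given below, ERF11, ERF4, AT1G22190 and AT1G64380, LL was likewise higher at -23 hr, by 1.02, 0.69, 0.64 and 0.55. Without replicate 2 at -23 hr ERF11 and AT1G64380 were not called (0.79 and 0.46), nor without most other single arrays of the comparison, and AT1G22190, AT1G64380 and ERF4 were not called in a fit limited to the groups compared (adjusted p = 0.0592, 0.0783 and 0.0605). In the same comparison 0 of the 10 target genes was called, and 0 reached an unadjusted p below 0.05.

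Among 37 other DREB and related ERF genes, 4 were called up and 0 down in Col-0 at 1 hr, 3 up and 4 down at 3.5 hr and 4 up and 1 down at 25 hr. In Ga-0 3 were up and 2 down, and in Ts-1 1 was up and 1 down. Of all loci, 1.94% were up and 0.920% down in Col-0 at 1 hr, 3.94% and 3.78% at 3.5 hr, 2.67% and 2.40% at 25 hr, 1.36% and 0.888% in Ga-0, and 1.56% and 0.866% in Ts-1. Leaving out 1 array gave 2 to 5 calls in Col-0 at 1 hr, the 2 without HL replicate 3, and 2 to 6 in Ga-0, the 2 without HL replicate 2. With limma's treat, which tests against a 1.4-fold change, 2 passed in Col-0 at 1 hr, 1 at 3.5 hr and 0 in each of the other comparisons, and a 2-fold limit left 1, 1 and 2 at the Col-0 times, 1 in Ga-0 and 0 in Ts-1. The median log2 change of the list lay between -0.04 and 0.08, beside -0.019 to -0.002 over all loci. ERF11, a repressor of the ERF family, rose in Col-0 by 1.42 at 1 hr (adjusted p = 9.79e-05) and by 1.09 at 25 hr. AT1G22190 rose at 1 hr in all 3 accessions, by 0.64 in Ga-0, 0.77 in Ts-1 and 0.92 in Col-0. ERF1A, which binds the GCC box, rose by 0.72 in Col-0 at 1 hr, by 1.08 at 25 hr and by 0.76 in Ga-0. At 1 hr in Col-0 the call of ERF1A was lost without HL replicate 1 or 3 or LL replicate 2 (0.68, 0.49 and 0.62) and in a fit limited to the groups compared (limma adjusted p = 0.0558), and in Ga-0 without HL replicate 2 (0.49). ERF107 rose by 1.34 in Col-0 at 3.5 hr (adjusted p = 3.9e-13) and fell at 1 hr by 0.61 in Ts-1 and by 0.65 in Ga-0, but the rise would read as -1.99 with groups placed closest to Col-0 LL at -23 hr. ERF2 was called down at 3.5 hr (-0.93) and up at 25 hr (0.99) and in Ga-0 at 1 hr (1.2). Each of these calls was lost without 1 array, at 3.5 hr without LL replicate 1 (-0.81), at 25 hr without HL replicate 1 (0.84) and in Ga-0 without HL replicate 2 (0.78). With each array placed alone closest to Col-0 LL at -23 hr, the change of ERF2 at 3.5 hr would read as 0.18 and that in Ga-0 as 0.095. AT1G64380 fell by 0.82 and ERF5 by 0.67 at 3.5 hr, where AT2G22200 rose by 0.68 and SHN3, a factor of cuticle formation, by 0.54, which was not called without HL replicate 1 (0.41) or LL replicate 3 (0.43). RAP2.3, of the ERF group whose proteins are degraded in the presence of oxygen, fell by 0.75 at 25 hr, and AT4G39780 fell by 0.51 in Ga-0. The last was not called without HL replicate 2 (-0.42) or LL replicate 2 (-0.41), nor in a fit limited to the groups compared (adjusted p = 0.0525).

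Of 10 target genes of the DREB and CBF factors, 4 were called up in Col-0 at 1 hr, 4 up and 2 down at 3.5 hr, and 1 up and 2 down at 25 hr. In Ga-0 2 were called up and in Ts-1 1. Of all loci, 1.94%, 3.94% and 2.67% were called up at the 3 Col-0 times, 3.78% and 2.40% down at the later times, 1.36% up in Ga-0 and 1.56% up in Ts-1. Leaving out 1 array gave 2 to 4 calls in Col-0 at 1 hr, the 2 without HL replicate 3, and 0 to 3 in Ga-0, the 0 without HL replicate 1. Either stricter limit left 0 in Col-0 at 1 and 25 hr and in Ga-0 and 2 at 3.5 hr, and in Ts-1 treat left 0. The list medians were 0.31, 0.41 and 0.14 in Col-0, -0.03 in Ts-1 and 0.23 in Ga-0, where the medians over all loci lay between -0.019 and -0.002. COR15A, a protective protein of the chloroplast stroma, rose by 0.91 in Col-0 at 1 hr (adjusted p = 0.00255) and by 1.24 at 3.5 hr, the first not called without HL replicate 3 (0.66). RD29A, the classical DREB target, rose by 0.88 and 0.81 at these times, and the dehydrin ERD10 by 0.84 at 1 hr, by 0.60 at 25 hr and by 0.67 in Ga-0. Without HL replicate 1, ERD10 was not called at 25 hr or in Ga-0 (both 0.48). The 3.5 hr rises of COR15A and RD29A would read as falls of -2.08 and -2.52 with groups placed closest to Col-0 LL at -23 hr. GOLS3, a galactinol synthase, fell by 1.13 at 3.5 hr (adjusted p = 8.03e-08), where the dehydrin COR47 fell by 0.62, though only by 0.39 and not called without LL replicate 1. KIN2 was called up at 3.5 hr (0.52) and down at 25 hr (-0.72), the former within the fold limit without HL replicate 1 or 2 or LL replicate 3 (0.46, 0.48 and 0.40). COR15B rose by 1.02 in Ts-1 and fell by 0.70 in Col-0 at 25 hr, and RD29B rose by 0.82 in Ga-0. Leaving out 1 array moved the change of RD29B between 0.51 and 1.14, and the call was lost without HL replicate 1 (adjusted p = 0.0742) and in a fit limited to the groups compared (adjusted p = 0.0818). With each array placed alone closest to Col-0 LL at -23 hr it would read as -0.29.

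Of 18 known regulators of DREB2A and the CBF genes, 0 were called up in any light comparison, and 1, 2 and 2 were called down in Col-0 at 1, 3.5 and 25 hr, 1 in Ts-1 and 0 in Ga-0. At an unadjusted limma p below 0.05, between 0 and 2 of them were higher in HL, and 4, 5 and 8 were lower in Col-0 at 1, 3.5 and 25 hr, 3 in Ts-1 and 1 in Ga-0. The share of all loci at this unadjusted limit was not computed, so these counts cannot be read as a shift of the list. Of all loci, 0.920%, 3.78% and 2.40% were called down in Col-0 at 1, 3.5 and 25 hr, 0.866% in Ts-1 and 0.888% in Ga-0. The shares called up are those given beside the target genes. Without 1 array the calls numbered 0 to 2 in Col-0 at 1 hr, in Col-0 at 25 hr and in Ts-1, and 0 to 1 in Ga-0, and either stricter limit left 1 at 3.5 hr and 0 in the others. The list medians lay between -0.13 and 0.01. NF-YB3, a subunit of the NF-Y complex that works with DREB2A, fell by 0.51 in Col-0 at 1 hr, by 0.64 at 3.5 hr and by 0.60 in Ts-1, but its change was within the fold limit without LL replicate 3 in Col-0 at 1 hr (-0.46) or HL replicate 3 in Ts-1 (-0.44). PIF4, a phytochrome-interacting factor, fell by 1.32 at 3.5 hr (adjusted p = 1.44e-11), and ICE2 and PIF7 fell by 0.54 and 0.49 at 25 hr. Without HL replicate 1 at 25 hr neither passed (-0.48 and -0.43), nor did PIF7 without LL replicate 1 (-0.44) or with median centring of the arrays (-0.47). Of 15 marker genes of rosette and root cell types, 0 were called in the light comparisons at 1 and 25 hr. In these, 3 to 7 reached an unadjusted limma p below 0.05, again without a computed share of all loci. At 3.5 hr 2 were called up (KAT1, AHA3), where 3.94% of all loci were, and 3 down (LHCB1.1, MYB60, CER5), where 3.78% were. KAT1 and MYB60, both guard cell markers, moved in opposite directions (0.98 and -0.57). The part of cell composition in the changes at 3.5 hr was not tested, and in whole rosettes fewer cells of a type and less RNA per cell cannot be told apart.

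Over the 33 arrays, the log2 profile of ERF53 was most like those of MTHSC70-2, a mitochondrial heat-shock protein (Pearson's r = 0.947), and AT4G28140 (r = 0.944), and that of AT4G28140 was most like ERF53 and HSP23.6-MITO (r = 0.921). DREB2A was most like GSTU28 (r = 0.934) and BIM2 (r = 0.893), and ESE3 like AT5G16030 (r = 0.939) and AT5G48490 (r = 0.938). AT5G07580 was most like WNK1 (r = 0.908) and AT1G10150 (r = 0.905). For CBF2 the closest were AT2G27080 (r = 0.790) and AT3G09863 (r = 0.757). For CBF1, CBF3, DDF1 and DREB2B, which changed little, the highest r lay between 0.630 (JAL34, for DREB2B) and 0.775 (AT3G04410, for CBF1). These are descriptions over arrays that share their groups, with the powers of 10 placed as above.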

How the data were processed

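RNA of rosettes was hybridized to AraGene 1.1ST arrays, 33 arrays in 11 groups of 3. The authors extracted probe values with Affymetrix Expression Console 1.2.1 and normalized them by RMA. The deposited values are linear RMA signal values for 27826 loci, of which 27241 were found in the TAIR10.1 annotation, and hold digits without a decimal separator. The analysis had been planned for log2 values, so the digits were first placed as described in the report, with the supplementary tables giving only powers of 10 (520 loci, 6 members). A single limma 3.58.1 model in R 4.3.3 took the log2 values of all arrays (1 mean per group, eBayes without trend, 22 residual and 8.37 prior degrees of freedom), and each of the 19 comparisons had its own Benjamini-Hochberg adjustment over all loci. Over loci, the residual SD had a median of 0.111 (log2). No 2 arrays held identical values. The placing by the smallest change and the model were first run on simulated data. The use of listed powers of 10 was not part of that run.

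The members and lists were chosen with earlier results of these data known. All 10 members are named. Of the lists, loci called in a light comparison with arrays that did not overlap are named, at most 3 up and 3 down per comparison, and for each member the 2 loci of highest r. Genes called between LL groups and markers were named after their values were seen. Alternatives were a fit to the compared groups alone, the replicate number as a block, centring on array medians, robust estimation, limma's treat, a 2-fold limit, unadjusted p, 3 other placings, a fit without Col-0 LL at -23 hr, and each array left out in turn. The deposited table holds no column of the authors' own comparisons. Quantile normalization and a filter on dim loci need the levels of genes and were not run. Figures were drawn with matplotlib in Python. Promoter and protein sequences were not used here.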

Additional observations from a re-analysis of the deposited data

Results flagged for a closer look

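Between time-points or accessions, 8 differences in the light response of members passed a test of the difference itself (limma contrasts of responses). Between 1 and 3.5 hr in Col-0, the responses of DREB2A, ERF53 and ESE3 differed by 1.36, 0.81 and 0.75 on the log2 scale, where a positive value is a higher HL to LL ratio at 1 hr. Between 1 and 25 hr that of DREB2A differed by 1.32, and between 3.5 and 25 hr that of ESE3 differed by -0.64. Between accessions at 1 hr, the response of CBF2 was higher in Col-0 than in Ga-0 by 1.05, that of ERF53 was higher by 0.75 in Col-0 than in Ts-1, and that of DREB2A was lower in Ga-0 than in Ts-1 (-0.79). The calls between accessions were lost without any 1 of 8, 11 and 9 of their 12 arrays, in that order, and the 5 between time-points were kept on leaving out each of theirs. Of these 5, however, 3 turn under another placing of the digits, both differences of DREB2A to -1.96 and -2.01 with the smallest change alone and that of ERF53 to -2.51 with groups placed closest to Col-0 LL at -23 hr. Between accessions, those of ERF53 and DREB2A turn to -2.57 and 2.54 under the same placings.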

How the results depend on the processing

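Counts of all members called were recomputed under each alternative and kept within 1.5 times their value in 152 cases and not in 56. The share of all loci called was computed for the main limits only. Counts of members or list genes under any alternative, here and above, therefore have no background to be read against. Single calls of members kept direction and limits in 407 cases, lost a limit in 76 and changed direction in 21, all of the last under other placings of the digits. With limma's treat, which tests against a 1.4-fold change, 3, 2 and 1 members were called in HL against LL in Col-0 at 1, 3.5 and 25 hr, 1 in Ts-1 and 3 in Ga-0. Treat called 1 member for 1 against 3.5 hr in response and 1 for HL at 25 against 1 hr, and 0 for each response difference between Col-0 and Ga-0, Col-0 and Ts-1, Ga-0 and Ts-1, and 3.5 and 25 hr, for each LL difference between accessions, and for LL at 3.5 and -23 hr against 1 hr. A 2-fold limit left 3, 1 and 1 members in Col-0, 1 in Ts-1 and 3 in Ga-0, 1 each for the response at 1 against 3.5 hr, LL at -23 hr and HL at 3.5 and 25 hr against 1 hr, and 0 for Col-0 against Ts-1, Ga-0 against Ts-1 and 3.5 against 25 hr in response, for each LL difference between accessions and for LL at 3.5 hr. Both ask for a larger change by construction.

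A robust fit called 3 members for each response difference between accessions, 2 for 1 against 25 hr and for Ga-0 against Ts-1 in LL, and 1 for LL at 3.5 against 1 hr. Unadjusted p called 2 members for Col-0 against Ga-0 and against Ts-1, and 3 for Ga-0 against Ts-1 and for 1 against 25 hr. Median centring called 0 for Col-0 against Ts-1. With the replicate number as a block the count for Col-0 against Ts-1 was 0 in place of 1, and the other 18 counts did not change. Same-numbered arrays of different groups correlated by 0.015 on average in their deviations (-0.224 to 0.266, 27 of 165 pairs above 0.1). Arrays with different numbers correlated by -0.00751 on average. The main fit, as planned, did not take the numbers as a pairing, and these correlations do not settle whether they are one. As a hint from the data, 19 of 33 arrays correlated best with their own number, where 1 in 3 would be 11.

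With the smallest change alone, DREB2A read as -1.46 in Col-0 and -1.37 in Ts-1 at 1 hr, and its dependent differences as 2.54 for Ga-0 minus Ts-1, -1.96 for 1 minus 3.5 hr, -2.01 for 1 minus 25 hr, and 1.38 and 1.98 for HL at 3.5 and 25 hr minus 1 hr. That placing called 2 members for Col-0 against Ga-0. With groups placed closest to Col-0 LL at -23 hr, ERF53 read as -1.82 in Col-0 and -2.0 in Ga-0, as -2.57 for Col-0 minus Ts-1 and -2.51 for 1 minus 3.5 hr, and as 2.43 and 2.56 for HL at 3.5 and 25 hr minus 1 hr. AT4G28140 read as -1.73 in Ga-0, and at 3.5 hr COR15A, RD29A and ERF107 read as -2.08, -2.52 and -1.99. That placing called 3 members for Col-0 against Ga-0 and Ga-0 against Ts-1 and 2 for 1 against 25 hr. An alternative added after seeing the data placed each array alone closest to Col-0 LL at -23 hr. ERF53 then read as -0.71 in Col-0, -0.89 in Ga-0, -1.46 for Col-0 minus Ts-1, -1.40 for 1 minus 3.5 hr, and 1.32 and 1.46 for HL at 3.5 and 25 hr minus 1 hr, AT4G28140 and RD29B as -0.62 and -0.29 in Ga-0, and COR15A, RD29A, ERF107 and ERF2 as -2.08, -1.41, -1.99 and 0.18 at 3.5 hr. It called 3 members at 3.5 hr, at 25 hr and in Ts-1, 1 for each HL difference over time, and 0 for Col-0 against Ga-0, Col-0 against Ts-1 and Ts-1 against Col-0 in LL. The placing alone makes these differences. ESE3, AT5G07580 and CBF2 were reversed under none of the placings run.

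On leaving out each array in turn, the counts of all members lay between 4 and 5 in Col-0 at 1, 3.5 and 25 hr, 5 and 6 in Ga-0, and at 5 in Ts-1. They lay between 0 and 2 for Col-0 against Ga-0, 0 and 1 for Col-0 against Ts-1 and Ga-0 against Ts-1, 3 and 4 for 1 against 3.5 hr, 1 and 3 for 1 against 25 hr, and at 1 for 3.5 against 25 hr. In LL they were 1 for Ga-0 against Col-0, 0 to 1 for Ts-1 against each, 1 to 2 at 3.5 hr, 2 at -23 hr and 0 at 25 hr against 1 hr, and in HL 2 to 4 at 3.5 hr and 2 to 3 at 25 hr. Signal over background, which limits arrays, is unknown in these values.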
